A study of Mus musculus with 4 samples.

Results

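The miR-30 family was followed across macrophages of the bone marrow (BM) and the spleen, in normal mice and in mice with acute myeloid leukaemia (AML). Its members were the 7 rows of the miRNA count table named mmu-miR-30a-5p, mmu-miR-30b-5p, mmu-miR-30c-5p, mmu-miR-30d-5p, mmu-miR-30e-5p, mmu-miR-30a-3p and mmu-miR-30e-3p, out of 847 rows in all (the mouse prefix is left out from here on). They were chosen by their names, with earlier results of these data known. All mice were C57BL/6J, with an age of 6 to 8 weeks given for each group. The groups were macrophages of normal BM, of normal spleen, of AML BM and of AML spleen. The AML groups were taken 18 days after transfer of 1000000 GFP+ leukaemia cells carrying MLL-AF9, a fusion gene that drives AML, into mice that were not irradiated. The protocol gives days 0 and 18 as the times of the sort and a survival of 35 to 40 days. The sources used here do not give the sort markers, the number of mice behind a library, or whether the normal libraries are those of day 0.

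There was 1 library per group, so every statement compares libraries and none has a replicate check. Totals ran from 180227 counts in AML spleen to 435492 in normal spleen. Each level is a count divided by its scaled library size, per 1000000 (CPM), and brackets hold 95% intervals for counting error only. A miRNA was called different between 2 libraries at a ratio of at least 2 or at most 0.5, with an interval that excluded 1 and at least 30 counts in the larger library. The macrophage and myeloid list (miR-223, miR-142a, miR-511, miR-146a and miR-155 rows) held 2.39% of the reads in normal spleen, against 0.767% in AML spleen, 0.462% in AML BM and 0.291% in normal BM. Of its defining members, miR-511-5p, which lies in the macrophage mannose receptor gene, had 5 counts in normal spleen and 0 in each of the other libraries, which allows up to 3 counts there. The listed miR-511-3p had no row. Another list member, miR-223-3p, stayed below 30 counts in every library and was not compared. It had 28 counts in normal spleen, 12 and 10 in the AML and normal BM libraries, and only 4 in AML spleen. In normal spleen miR-146a-5p gave 6753 of the 10397 counts of the list. Of 5 list members compared, 4 were called higher in normal spleen than in normal BM, beside 30.8% of all miRNAs. The remaining one, miR-223-5p, was called lower, from 36 against 42 counts, and was highest in AML BM with 149.

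MicroRNAs are cut from hairpin precursors, and either arm, 5p or 3p, can be loaded into the silencing complex. Targets are found mainly through the seed, bases 2 to 8 of the mature strand, so miRNAs with the same seed form a family with overlapping targets. In the miR-30 family the 5p arms are the usual guide strands, found in most tissues and abundant in epithelia and heart. They are known to restrain connective tissue growth factor, the autophagy factor Beclin 1 and genes of the epithelial-mesenchymal transition (EMT).

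The mature sequences show which rows can act on the same targets and which rows are hard to tell apart by sequencing. Of the 7 members, 5 had a mature sequence in the RefSeq table (build GRCm38.p6), given here 5′ to 3′ with the seed in capitals:
miR-30a-5p: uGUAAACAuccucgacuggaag
miR-30e-5p: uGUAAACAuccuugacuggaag
miR-30c-5p: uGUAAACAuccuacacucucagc
miR-30a-3p: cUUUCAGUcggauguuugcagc
miR-30e-3p: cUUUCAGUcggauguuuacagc
The 5p arms share the seed GUAAACA and the 3p arms the seed UUUCAGU. With positions counted from 1 at the 5′ end, miR-30a-5p and miR-30e-5p differ by the single substitution C13U. The 3p arms of the same hairpins differ by G18A only. miR-30c-5p differs from miR-30a-5p at 5 of 22 positions (C13A, G14C, G18C, G19U and A20C), all behind the seed. Mature lengths of these 5 members were 22 or 23 bases, and levels were compared without a length term. The lengths of miR-30b-5p and miR-30d-5p were not available here. The sources used here do not say how reads that match more than 1 row were assigned. Within 3% or 2 counts in all 4 libraries, no other row repeated the counts of a member.

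The same mature strand can come from more than 1 place in the genome, so the hairpins are given with their positions. Mir30a lies at chr1:23272269-23272339 on the plus strand, outside any other GENCODE M21 gene. Mir30c-2 lies at chr1:23291701-23291784 on the plus strand, 19361 bases from Mir30a and over an exon of the lincRNA gene Gm27028. Mir30e (chr4:120772606-120772697) and Mir30c-1 (chr4:120769534-120769622) lie 2983 bases apart on the minus strand, in introns of Nfyc, which encodes a subunit of the transcription factor NF-Y. Mir30c-1 and Mir30c-2 give the same miR-30c-5p, and only their 3p arms tell the 2 loci apart. The Mir30a and Mir30e hairpins, which gave both arms among the members, are shown with the arms in capitals:
Mir30a: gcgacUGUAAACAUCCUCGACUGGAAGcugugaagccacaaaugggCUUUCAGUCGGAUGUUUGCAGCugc
Mir30e: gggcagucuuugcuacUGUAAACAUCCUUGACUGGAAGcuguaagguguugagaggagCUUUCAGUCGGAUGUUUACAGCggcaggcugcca

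Together the 5 guide rows made up 5.55% [5.46 to 5.65, Wilson] of the reads in normal BM, 4.61% [4.53 to 4.69] in AML BM and 4.11% [4.02 to 4.20] in AML spleen. In normal spleen they made up 2.04% [2.003 to 2.087], the lowest share of the 4 libraries. The scaled level of the 5p total was 55344 CPM in normal BM, 44596 in AML BM, 38370 in AML spleen and 22709 in normal spleen. The 2 members from 3p arms were minor in all 4 libraries, with between 1.24% and 1.29% of the reads of the 7 rows.

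miR-30a-5p was the most abundant guide in 3 libraries, but not in normal spleen, where it was low. It had 5553 counts in normal BM, 5222 in AML BM, 3046 in AML spleen and 1235 in normal spleen. Scaled, these were 26778 CPM [26078 to 27491], 18623 CPM [18121 to 19135], 15788 CPM [15232 to 16358] and 3150 CPM [2977 to 3330]. No intervals overlapped, and normal spleen stood apart from the other libraries by the widest step. Its rank among all rows was 12 in normal BM and 42 in normal spleen.

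miR-30d-5p, the most abundant guide in normal spleen and second to miR-30a-5p in the other libraries, did not share this drop. Its level was 15045 CPM in normal spleen (5899 counts), 14479 CPM in AML BM (4060 counts), 12653 CPM in normal BM (2624 counts) and 10957 CPM in AML spleen (2114 counts). The levels of normal spleen [14664 to 15434] and AML BM [14037 to 14931] overlapped within counting error, and their order turned on total counts, at 13546 per 1000000 in normal spleen and 14970 in AML BM.

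The other guides were also low in normal spleen. For miR-30e-5p the counts were 1684 in normal BM, 1739 in AML BM, 1166 in AML spleen and 873 in normal spleen, or 8121, 6202, 6043 and 2227 CPM. Its AML BM [5914 to 6500] and AML spleen [5701 to 6401] levels overlapped. For miR-30c-5p the counts in the same order were 1157, 1041, 829 and 731, or 5579, 3713, 4297 and 1864 CPM, with AML spleen above AML BM, unlike miR-30a-5p. The least abundant guide, miR-30b-5p, had 459, 443, 248 and 166 counts, or 2213, 1580, 1285 and 423 CPM, and its AML BM [1436 to 1734] and AML spleen [1130 to 1456] levels overlapped. Normal BM was the highest and normal spleen the lowest library for each of these 3 miRNAs.

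**Figure D1:**
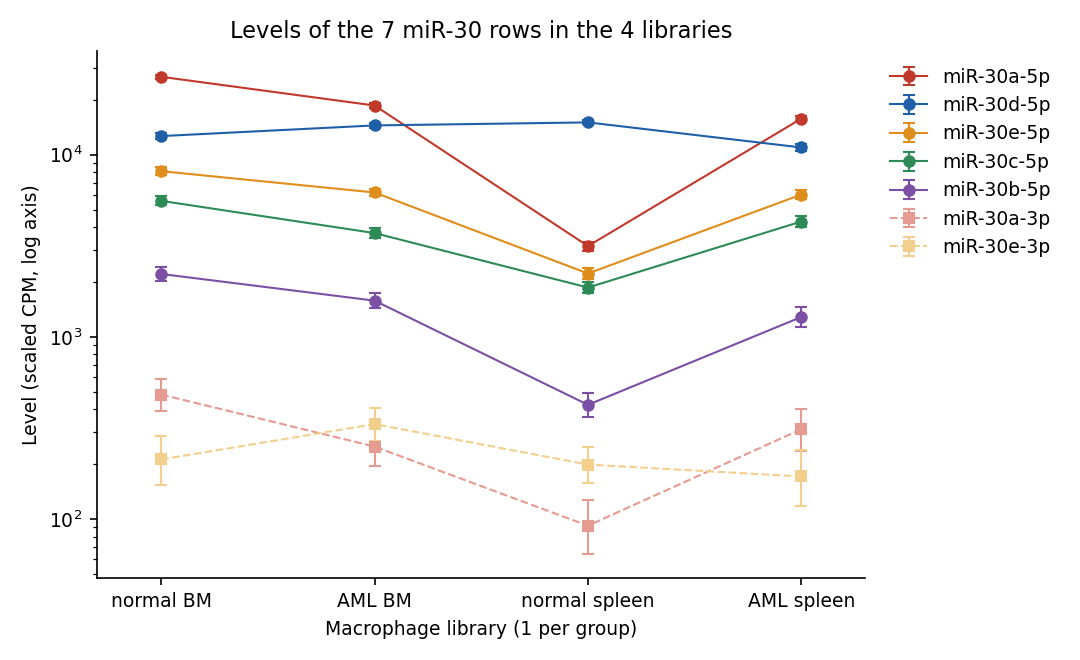
Level of each of the 7 miR-30 rows in scaled CPM (log axis) in the 4 macrophage libraries, with 95% exact Poisson intervals; circles are 5p arms, squares 3p arms, and lines only link the points of a row. In normal spleen miR-30a-5p stood at 3150 CPM and miR-30d-5p at 15045 CPM, whereas in normal BM they stood at 26778 and 12653 CPM.

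The make-up of the family therefore differed between normal spleen and the other libraries. miR-30a-5p supplied 48.4% [47.5 to 49.3] of the 5p reads in normal BM, 41.8% [40.9 to 42.6] in AML BM and 41.1% [40.0 to 42.3] in AML spleen. In normal spleen its share was 13.9% [13.2 to 14.6]. miR-30d-5p supplied 66.3% [65.3 to 67.2] of the 5p reads there, against 22.9% in normal BM, 32.5% in AML BM and 28.6% in AML spleen. Put as reads of miR-30a-5p for each read of miR-30d-5p, the balance was 2.12 in normal BM, 1.29 in AML BM, 1.44 in AML spleen and 0.209 in normal spleen. These shares compare reads within a library and do not depend on the scaling.

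**Figure D2:**
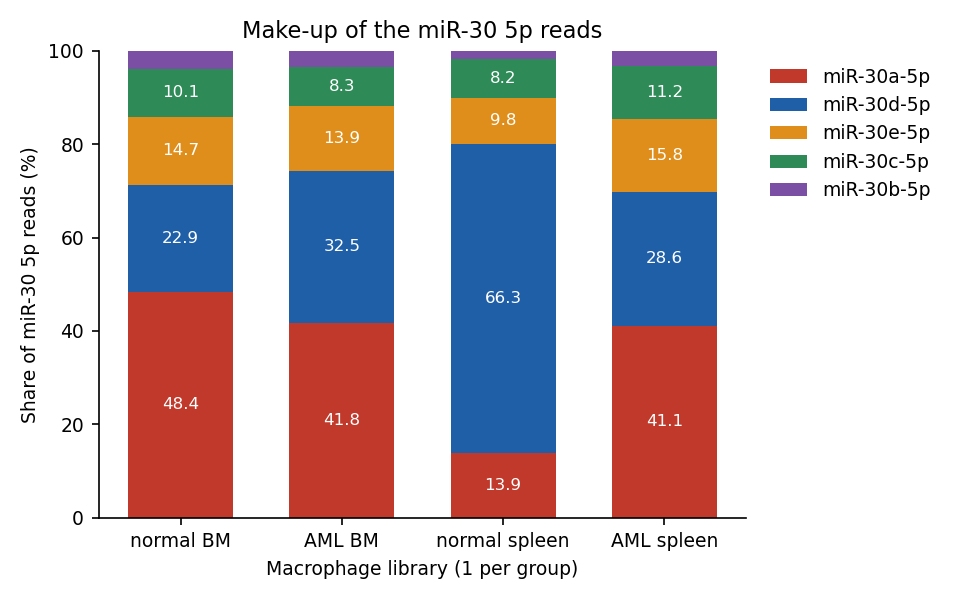
Share (%) of the miR-30 5p reads held by each of the 5 guide rows in each library, as stacked bars that sum to 100%. The miR-30d-5p part was 66.3% in normal spleen and between 22.9% and 32.5% in the other libraries.

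The normal spleen library had less of most family members than the normal BM library. In normal spleen against normal BM, 5 of the 7 members were called lower and none higher. Of all 234 miRNAs compared, 66.2% were called, 35.5% as lower and 30.8% as higher, so differences of this size were common between these 2 libraries. The median log2 ratio of the 7 members was -1.87, beside 0.19 over all miRNAs compared. miR-30a-5p was 8.50-fold lower in normal spleen, with a log2 ratio of -3.09 [-3.18 to -2.998]. miR-30b-5p had a log2 ratio of -2.39 [-2.65 to -2.13] and miR-30a-3p one of -2.39 [-2.98 to -1.83]. miR-30e-5p stood at -1.87 [-1.99 to -1.75] and miR-30c-5p at -1.58 [-1.72 to -1.45]. The 2 members not called were miR-30d-5p at 0.25 [0.18 to 0.32] and miR-30e-3p at -0.09 [-0.64 to 0.47], whose sign turned positive under 2 of 3 other scalings. The 5p total was 2.44-fold lower, a log2 ratio of -1.29 [-1.33 to -1.25], which ended as a call at -0.55 once miR-30a-5p was left out.

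The AML spleen library had more of the same members than the normal spleen library. In AML spleen against normal spleen, 5 of the 7 members were called higher and none lower, with 46.3% of 216 miRNAs called, 25.0% as higher and 21.3% as lower. Of all miRNAs 54 were called higher and 46 lower, which became 51 and 68 with DESeq2 size factors. The median log2 ratio of the members was 1.44, beside -0.25 over all miRNAs compared. miR-30a-5p was 5.01-fold higher, a log2 ratio of 2.33 [2.23 to 2.42]. The other members called higher were miR-30a-3p at 1.76 [1.14 to 2.40], miR-30b-5p at 1.60 [1.31 to 1.89], miR-30e-5p at 1.44 [1.31 to 1.57] and miR-30c-5p at 1.20 [1.06 to 1.35]. The call of miR-30c-5p ended with DESeq2 size factors, at 0.97. miR-30d-5p stood at -0.46 [-0.53 to -0.39], and miR-30e-3p at -0.22 [-0.85 to 0.39], with a sign that turned on total counts. The 5p total was 1.69-fold higher, a log2 ratio of 0.76 that passed 2-fold on total counts, at 1.006. This comparison and that of the normal tissues share the normal spleen library, so they are not independent.

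In the BM the members differed less between AML and normal libraries. None of the 7 members was called in AML BM against normal BM, where 25.5% of 216 miRNAs were called (13.4% higher, 12.0% lower), and the median log2 ratio of the members was -0.49, beside 0.003 over all miRNAs compared. Of the guides, 4 were lower by less than 2-fold: miR-30c-5p at -0.59 [-0.71 to -0.47], miR-30a-5p at -0.52 [-0.58 to -0.47], miR-30b-5p at -0.49 [-0.68 to -0.29] and miR-30e-5p at -0.39 [-0.49 to -0.29]. miR-30d-5p stood at 0.19 [0.12 to 0.27]. The split over all miRNAs, 29 higher and 26 lower, became 39 and 19 on totals without the 10 most abundant. The 3p arms lay at the ends of the range, miR-30a-3p at -0.95 [-1.41 to -0.49] from 70 against 100 counts and miR-30e-3p at 0.64 [0.11 to 1.20] from 93 against 44.

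**Figure D3:**
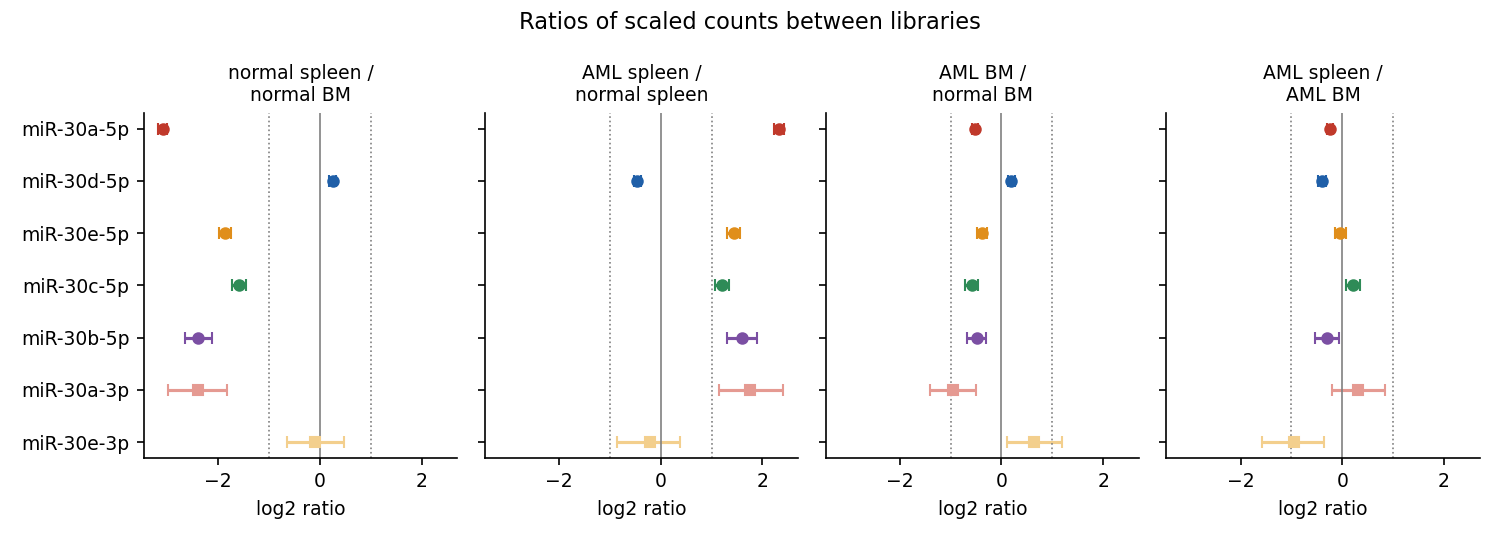
Log2 ratio of scaled counts for the 7 miR-30 rows in the 4 comparisons, with 95% exact conditional intervals (counting error only); dotted lines mark a 2-fold difference. In the panels with normal spleen 5 rows lie beyond 2-fold and miR-30d-5p and miR-30e-3p do not; in the other panels no row was called.

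The AML to normal ratio thus had opposite signs in the 2 tissues for all 7 members, although for miR-30e-3p the spleen interval held 0 and its sign turned on total counts. On the log2 scale the spleen ratio exceeded the BM ratio by 2.85 [2.74 to 2.96] for miR-30a-5p, 2.71 [1.97 to 3.45] for miR-30a-3p and 2.09 [1.75 to 2.43] for miR-30b-5p. The gap was 1.83 [1.67 to 1.99] for miR-30e-5p and 1.79 [1.60 to 1.98] for miR-30c-5p. For miR-30d-5p it ran the other way, at -0.65 [-0.75 to -0.55], as it did for miR-30e-3p, at -0.86 [-1.65 to -0.08]. With 1 library for each tissue and state, no residual is left to test these gaps. They draw on the same normal spleen library as the comparisons above, so they are not independent of them. The share of all miRNAs with opposite signs is not given here. Medians of the marker lists described below also changed sign. For the stromal and endothelial list the median log2 ratio was -0.77 in BM and 2.67 in spleen. For the lymphocyte list it was 0.86 and -1.40. The medians of the miR-26, miR-29 and let-7 families were below 0 in both tissues.

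In the leukaemic mice the spleen and BM libraries lay close to each other for most of the 7 members. None of the 7 members was called in AML spleen against AML BM, where 35.1% of 211 miRNAs were called (13.7% higher, 21.3% lower), and the members had a median log2 ratio of -0.24, beside -0.12 over all miRNAs compared. miR-30a-5p stood at -0.24 [-0.30 to -0.17] and miR-30d-5p at -0.40 [-0.48 to -0.33]. The member nearest to a call was miR-30e-3p at -0.96 [-1.57 to -0.37], from 33 against 93 counts. Among rows named miR-30 outside the 7 members, miR-30b-3p was called lower at -1.57 [-2.45 to -0.77], from 16 against 69 counts. So was miR-30f, at -1.32 [-2.43 to -0.33], from 11 against 40 counts. The other such rows were not called.

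An additive model of tissue and state, fitted to 246 miRNAs that reached 30 counts in some library, gives the only test with a residual, of 1 degree of freedom. It counts any difference of the AML effect between the tissues as noise. By the quasi-likelihood test of edgeR, with p-values adjusted after Benjamini and Hochberg, none of the 7 members and none of the 246 miRNAs passed for either term (0% called). At an unadjusted p under 0.05 there were 15 of 246 for tissue and 0 for AML, none of them a member. DESeq2 called 12 miRNAs for tissue and 0 for AML, again with no member. For miR-30a-5p the tissue term (spleen over BM) had a log2 fold of -1.66 (SE 1.12, edgeR adjusted p = 0.758), and the lowest adjusted p of a member with DESeq2 was 0.390.

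The 3p arms, which are the usual passenger strands, help to tell the hairpins apart. Like its 5p partner, miR-30a-3p was highest in normal BM and lowest in normal spleen, with 100 counts in normal BM, 70 in AML BM, 60 in AML spleen and 36 in normal spleen. The miR-30e-3p row did not have this low point, with 44, 93, 33 and 78 counts in the same order. As levels, miR-30a-3p stood at 482 CPM in normal BM, 250 in AML BM, 311 in AML spleen and 91.8 in normal spleen, while miR-30e-3p stood at 212 CPM in normal BM and 199 CPM in normal spleen. In normal BM miR-30a-3p was the more abundant of the 2, and in normal spleen miR-30e-3p was, with 0.44 [0.30 to 0.63] and 2.17 [1.44 to 3.31] reads of miR-30e-3p for each read of miR-30a-3p.

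Arm balance differed less between libraries for miR-30a than for miR-30e and miR-30b. For each 3p read of miR-30a there were 55.5 [45.6 to 68.4] reads of the 5p arm in normal BM, 74.6 [58.9 to 95.8] in AML BM, 50.8 [39.3 to 66.7] in AML spleen and 34.3 [24.6 to 49.2] in normal spleen. For miR-30e these values were 38.3 [28.4 to 52.9], 18.7 [15.2 to 23.3], 35.3 [25.0 to 51.6] and 11.2 [8.87 to 14.3]. For miR-30b, whose 3p arm is a row outside the 7 members, they were 12.8 [9.07 to 18.4], 6.42 [4.97 to 8.40], 15.5 [9.36 to 27.5] and 1.98 [1.51 to 2.60]. Normal spleen had the lowest 5p to 3p balance for these 3 hairpins, and its intervals for miR-30e and miR-30b overlapped none of the others. For miR-30d, with only 5 to 8 counts of the 3p arm, normal spleen had the highest balance, 983 [451 to 2680] against 328 [166 to 761] in normal BM. miR-30b-3p itself had 84 counts in normal spleen and 36 in normal BM, so that its log2 ratio was 0.30 [-0.28 to 0.91] where miR-30b-5p stood at -2.39. In AML spleen against normal spleen miR-30b-3p was called lower, at -1.37 [-2.24 to -0.59], where miR-30b-5p was called higher, at 1.60.

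**Figure D4:**
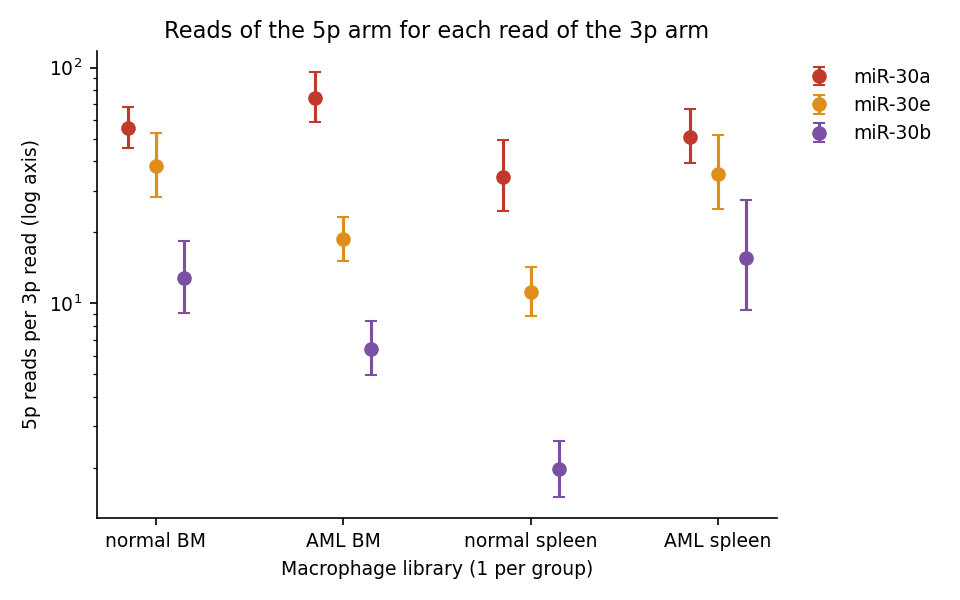
Reads of the 5p arm for each read of the 3p arm (log axis) of miR-30a, miR-30e and miR-30b in each library, with 95% exact intervals for counting error. In normal spleen the value was 34.3 for miR-30a, 11.2 for miR-30e and 1.98 for miR-30b.

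The 3p arms of the hairpins that give miR-30c-5p separated the chromosome 1 and chromosome 4 loci. They are shown because only they can be assigned to 1 locus, with the seed in capitals:
miR-30c-2-3p: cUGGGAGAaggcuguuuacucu
miR-30c-1-3p: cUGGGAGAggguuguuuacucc
miR-30c-2-3p, from the locus beside Mir30a, had 73 counts in normal BM, 77 in AML BM, 43 in AML spleen and 23 in normal spleen. It was lower in normal spleen than in normal BM by a log2 ratio of -2.59 [-3.33 to -1.89] and higher in AML spleen than in normal spleen by 1.93 [1.16 to 2.72]. miR-30c-1-3p, from the locus beside Mir30e, had 8, 15, 14 and 48 counts, with a log2 ratio of 1.67 [0.57 to 2.96] in normal spleen against normal BM. For each read of miR-30c-1-3p there were 9.13 [4.39 to 21.9] reads of miR-30c-2-3p in normal BM and 0.479 [0.278 to 0.803] in normal spleen. In normal spleen against normal BM, the rows specific to chromosome 1 (miR-30a-5p, miR-30a-3p and miR-30c-2-3p) were thus each called lower. Of the chromosome 4 rows, miR-30e-5p was called lower, and so was miR-30f, described below, from 26 against 31 counts. miR-30c-1-3p was called higher from few counts, and miR-30e-3p was not called.

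The table held 2 more rows with names of this family. miR-30d-3p had between 5 and 8 counts in a library, too few to compare. miR-30f is annotated on the strand opposite Mir30e, where it overlaps miR-30e-3p by 19 bases, and its seed, in capitals, is not that of the guides:
miR-30f: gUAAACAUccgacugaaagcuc
It had 31 counts in normal BM, 40 in AML BM, 11 in AML spleen and 26 in normal spleen. Its log2 ratio in normal spleen against normal BM was -1.17 [-1.98 to -0.37], called lower from few counts. miR-384-5p, the other RefSeq miRNA found with the seed GUAAACA, had no row in the count table and could not be compared.

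Among 137 other miRNAs that reached 30 counts in every library, those with a pattern most like miR-30a-5p were miR-192-5p, miR-200a-3p, miR-143-3p, miR-194-5p and miR-200b-3p. Likeness was the root mean square difference of log2 CPM over the 4 libraries, each miRNA centred on its own mean, and these 5 lay within 0.033 to 0.128. miR-192-5p, a liver and gut miRNA, stood at 8646 CPM in normal BM, 5653 in AML BM, 4877 in AML spleen and 990 in normal spleen. miR-143-3p, a smooth muscle and stromal miRNA, stood at 19887, 14112, 13559 and 2242 CPM in the same order. miR-200a-3p and miR-200b-3p are epithelial miRNAs. For the 5p total the nearest were miR-125b-5p, miR-148a-3p, miR-27b-3p, miR-23a-5p and miR-374c-3p, at 0.127 to 0.216. For miR-30d-5p, a search added after its values were seen, the nearest were miR-26a-5p, let-7g-5p, miR-103-3p, let-7f-5p and miR-877-5p, at 0.114 to 0.157. Among the guides themselves, miR-30c-5p and miR-30e-5p lay nearest to each other (0.172) and miR-30a-5p and miR-30d-5p farthest apart (1.29). With 4 libraries some miRNA always lies near, so these values describe the libraries only.

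**Figure D5:**
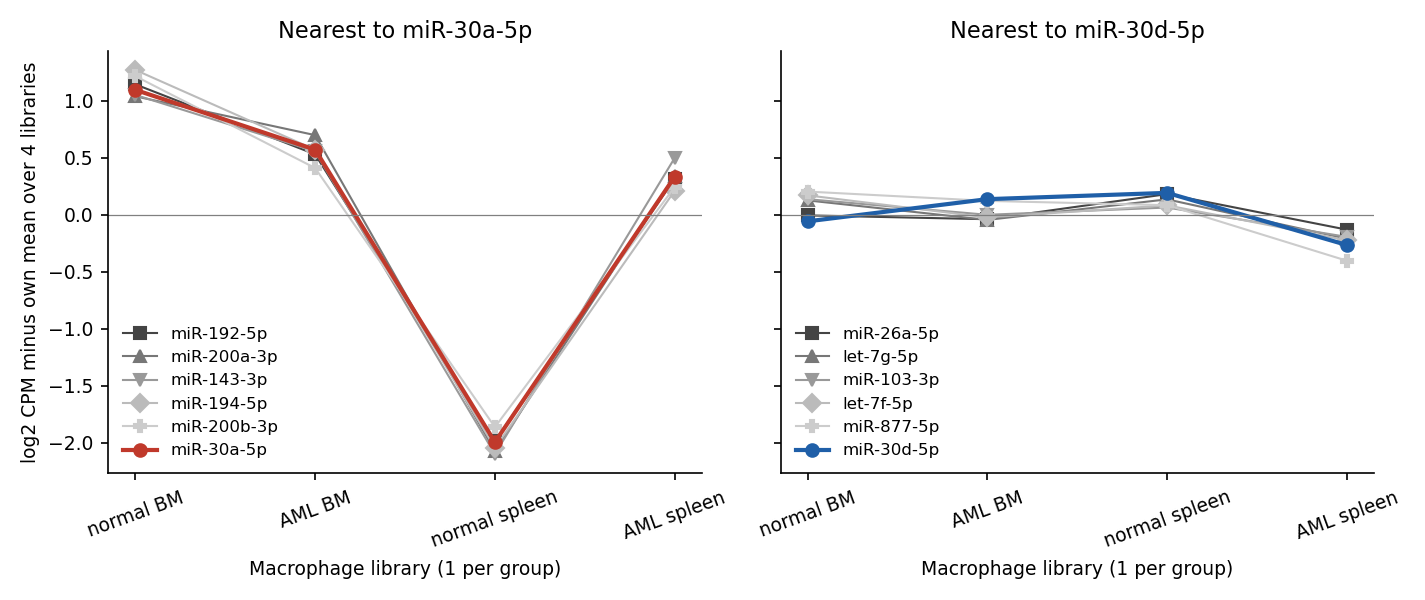
Log2 CPM minus each miRNA's own mean over the 4 libraries, for miR-30a-5p (left, red) and miR-30d-5p (right, blue) and the 5 nearest miRNAs of each (grey); lines only link points of a miRNA. The miRNAs nearest to miR-30a-5p share its low point in normal spleen, and those nearest to miR-30d-5p stay close to their means.

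Some lists of markers of other cell types were, like most members, lowest in normal spleen. The liver and epithelial list (11 miRNAs) held 3.35% of the reads in normal BM, 2.17% in AML BM, 1.85% in AML spleen and 0.384% in normal spleen, the order seen for miR-30a-5p. The stromal and endothelial list (9 miRNAs) held 3.23%, 2.30%, 2.38% and 0.330%, and the muscle list (4 miRNAs) 3.59%, 1.09%, 1.31% and 0.209%. No member of these 3 lists was at 0 counts in any library, except miR-141-3p in AML BM. In normal spleen against normal BM, 9 of 9 stromal and endothelial, 4 of 4 muscle and 9 of 10 liver and epithelial members compared were called lower, beside 35.5% of all miRNAs. In AML spleen against normal spleen, 6 of 6, 3 of 3 and 7 of 8 were called higher, beside 25.0% of all miRNAs. In AML BM against normal BM, 3 of 9, 4 of 4 and 3 of 10 were called lower, beside 12.0% of all miRNAs. No miR-30 member was called in that comparison. The lymphocyte list ran the other way, with 9.45% of the reads in normal spleen against 1.69% in normal BM, 4.44% in AML BM and 4.90% in AML spleen. For erythroid markers the summed share lay between 1.41% and 1.67% in all 4 libraries. It counts miR-486a-5p and miR-486a-3p, with 913 and 889 counts in normal BM and 3466 and 3361 in normal spleen. Whether these rows hold the same reads was not tested. Members of the erythroid list differed. The red cell miRNA miR-451a had a log2 ratio of -3.43 in normal spleen against normal BM, 1.96 in AML spleen against normal spleen and -2.15 in AML BM against normal BM, all called, whereas miR-486a-5p stood at 1.006, -0.35 and 0.53. The part of these lists in the miR-30 differences was not tested, and in sorted cells measured in bulk, fewer cells of a type and less RNA per cell cannot be told apart.

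A list of 11 miRNAs that, like miR-30, are known to restrain matrix or EMT genes had 7 of 9 members compared called lower in normal spleen against normal BM and none higher, beside 35.5% of all miRNAs, with a median log2 ratio of -3.11. In AML spleen against normal spleen 4 of 6 were called higher, beside 25.0% of all miRNAs, and none lower (median 1.96), and in AML BM against normal BM 3 of 9 were called lower, beside 12.0% of all miRNAs (median -0.90). Its epithelial members miR-200a-3p and miR-200b-3p had log2 ratios of 2.42 and 2.10 in AML spleen against normal spleen, and the muscle miRNA miR-133a-3p, which also restrains connective tissue growth factor, one of 3.26. The 2 members not called had the opposite sign, miR-29a-3p, which targets collagens, at -0.95 [-1.09 to -0.81] and the epithelial miR-200c-3p at -0.95 [-1.48 to -0.45]. The list shares its miR-133 rows with the muscle list and its miR-29 rows with the miR-29 family described next. All its other members are also in the liver and epithelial list.

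The summed levels of 3 other widely expressed families were not low in normal spleen, unlike the miR-30 5p total. The miR-26 family (2 rows) stood at 29876 CPM in normal spleen, 23735 in normal BM, 22560 in AML BM and 21188 in AML spleen. Levels of the miR-29 family (3 rows) stood at 5346, 4075, 2914 and 2892 CPM in that order, and let-7 with miR-98 (9 rows) at 186235, 152231, 149745 and 116364 CPM. All 3 sums were highest in normal spleen. Some of their less abundant members were low there: in normal spleen against normal BM the log2 ratio was -2.11 for let-7e-5p and -2.45 for miR-29b-3p, both called, and let-7e-5p was called higher in AML spleen than in normal spleen, at 1.38. A low level in normal spleen was not particular to miR-30, since 35.5% of all miRNAs were called lower there than in normal BM. For example, miR-27b-3p stood at 2885 CPM in normal spleen and 10252 in normal BM, and miR-148a-3p at 9865 and 21743. The difference between the families was not tested.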

How the data were processed

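Small RNA from sorted macrophages was sequenced on an Illumina HiSeq 2500, per the labels' protocols. The authors deposited read counts per miRNA for 4 libraries; the aligner, counter, build and annotation were not given in the sources used here. Deposited TPM values equalled the count over the library total times 1000000, with no length term, and served only for this check. Each library took its group from its title. Library sizes were scaled with TMM factors (1.00 for normal BM, 0.900 for normal spleen, 1.03 for AML BM, 1.07 for AML spleen; edgeR 4.0.16, R 4.3.3). Ratios have 95% exact conditional (Clopper-Pearson) intervals, shares Wilson and levels exact Poisson intervals (SciPy 1.17.1). Reads had no molecular identifiers in the file, so intervals cover counting error only. The additive model used edgeR, with DESeq2 1.42.0 as an alternative. All steps ran over the whole table. Scripts were tested on simulated data. All 7 members, the other rows named miR-30 and the 5 miRNAs nearest in pattern to miR-30a-5p and to the 5p total were named. So were up to 4 of the most abundant members of other lists. let-7e-5p, miR-29b-3p, miR-200c-3p and miR-223-5p were named after their values were seen. The members and lists were chosen with earlier results of these data known. Alternatives were other scalings, count minimums, a lower fold threshold and other family totals.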

Additional observations from a re-analysis of the deposited data

Results flagged for a closer look

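The AML to normal ratio went in opposite directions in BM and spleen, with both counting intervals clear of no difference, for 6 of the 7 members and for the 5p total. Written as the log2 ratio of the spleen minus that of the BM, the gap was 2.85 for miR-30a-5p, 2.71 for miR-30a-3p, 2.09 for miR-30b-5p, 1.83 for miR-30e-5p, 1.79 for miR-30c-5p and 1.07 for the 5p total. For miR-30d-5p it was -0.65, from 0.19 in the BM and -0.46 in the spleen. These differences between the tissues were not tested, since each rests on 4 libraries with no replicate. The share of all miRNAs with opposite directions is not given here, and the medians of the marker lists of cell types also changed sign.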

How the results depend on the processing

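No paired analysis was possible because each group holds 1 library, and for the same reason no library could be left out. With a 1.5-fold threshold 3 members were called in AML BM against normal BM (1 higher, 2 lower) and 1 in AML spleen against AML BM (lower), against 0 at 2-fold. The 5p total in AML spleen against normal spleen passed 2-fold on total counts (1.006), and the median of its 5 log2 ratios was 1.44. Against 0.76 as reported, it was 0.52 with DESeq2 size factors and 0.21 without miR-30a-5p. In normal spleen against normal BM the 5p total fell short of 2-fold without miR-30a-5p (-0.55). The gap of the 5p total between the AML ratios of spleen and BM, 1.07, was 0.80 with DESeq2 size factors, 1.27 on total counts, 0.96 when totals left out the 10 most abundant and 0.34 without miR-30a-5p; in this sum miR-30d-5p has the opposite sign. Of 84 single-member ratios under 3 other scalings, 83 stayed on the same side of the call, and 5 near 0 changed sign, all of miR-30e-3p or miR-30e-5p. DESeq2 size factors moved every log2 ratio of AML spleen against normal spleen by -0.24 and total counts by 0.25. Other counts of called members stayed within 1.5 times. Over all miRNAs, calls (higher and lower) with no minimum and with a minimum of 100 counts were 55 and 64 and then 15 and 9 for AML BM against normal BM (29 and 26 at 30 counts). They were 117 and 62 and then 33 and 31 for AML spleen against normal spleen (54 and 46), 100 and 159 and then 49 and 47 for normal spleen against normal BM (72 and 83), and 74 and 67 and then 16 and 21 for AML spleen against AML BM (29 and 45). At 1.5-fold, AML BM against normal BM had 48 and 48 of 216 miRNAs, and AML spleen against AML BM had 47 and 63 of 211. For the tissue term DESeq2 called 12 miRNAs and edgeR 0. The 3p arms had 33 to 100 counts per library, which limits their ratios.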
